A study of Mus musculus with 6 samples.

Results

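Toll-like receptors are membrane proteins of innate immunity that recognise conserved microbial molecules, and CD14 is the surface protein that hands lipopolysaccharide to one of them. The genes described here are Cd14 and every gene of the panel whose symbol is Tlr followed by a digit, chosen by name alone. They are 6 of the 518 endogenous and housekeeping genes measured, namely Tlr4, Cd14, Tlr6, Tlr3, Tlr7 and Tlr9. Natural killer (NK) cells of the mouse were purified and their RNA was counted on a NanoString nCounter panel, in which a fluorescent barcode is counted for every captured transcript. All cells came from female C57BL/6 mice and were grown for 12 days with a conjugate of IL-15 and its receptor alpha chain at 10 ng/mL, so every group carries that cytokine.

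There were 3 groups of 2 libraries. The first was grown with feeder cells and then exposed to an antibody against TIM-3 for 4 h. The second had the same feeder cells and no treatment in its labels, and is called untreated feeder below. The third had IL-15 without feeder cells. The feeder was AgN2a-4P, a mouse neuroblastoma line that carries costimulatory ligands, irradiated at 100 Gy. The design text names an IgG2a isotype control antibody, which the labels of the untreated feeder libraries do not list, so if they were not incubated, the antibody and the incubation cannot be told apart. The labels describe quantitative PCR, whereas the values are those of nCounter probes and spike-in controls. The labels do not say whether libraries of 1 group came from separate mice, so the spread behind each p-value may be technical.

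In TLR signalling, TLR4 senses bacterial lipopolysaccharide together with the small protein MD-2, encoded by Ly96, after CD14 has delivered the ligand. TLR6 acts at the cell surface as a partner of TLR2 for bacterial lipopeptides, while TLR3, TLR7 and TLR9 lie in endosomes and sense nucleic acids. Most receptors signal through the adaptor MyD88 and TLR3 through TRIF, and both routes lead to NF-kB and interferon regulatory factors. Macrophages and other myeloid cells are the classical carriers of CD14 and TLR4, and NK cells express several Toll-like receptors at low levels.

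The recovered counts totalled 299485 to 409626 in the anti-TIM-3 libraries, 359824 to 379767 in the untreated feeder libraries and 422455 to 441185 in the IL-15 libraries. The 2 libraries of each group had a correlation across genes of 0.959 to 0.972 and differed beyond counting noise (chi-square per degree of freedom 37.9 to 107). All 12 listed NK cell genes were above the negative control level in every library. Havcr2, the gene of TIM-3, had 87.9 and 24.3 normalised counts in anti-TIM-3 libraries, 717 and 1343 in untreated feeder libraries, and 682 and 538 in IL-15 libraries. A normalised count is the deposited log2 value taken back to a linear scale, on which the housekeeping genes of every library have the same mean log2 value. On that scale 1 recovered count was worth 0.731 to 1.74 units, with the highest worth in anti-TIM-3 replicate 2, the library with the lowest total.

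The panel carries 8 negative control probes that match no transcript, and a gene was put at the negative control level where its recovered count did not exceed their mean plus 2 SD in that library. Of the 6 genes, only Tlr9 was at this level in a whole group. Tlr9, the endosomal sensor of unmethylated CpG DNA, had 6 and 7 counts in anti-TIM-3 libraries, against limits of 8.07 and 9.89 counts. In untreated feeder libraries it had 9 and 13 counts, against limits of 6.89 and 12.1. In IL-15 libraries it had 9 and 11 counts, against limits of 11.6 and 11.1. It was therefore at the negative control level in both anti-TIM-3 and both IL-15 libraries and just above it in both untreated feeder libraries.

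By group, 1 of 6 genes was at the negative control level in both anti-TIM-3 libraries, 0 of 6 in both untreated feeder libraries and 1 of 6 in both IL-15 libraries. The corresponding shares of all 518 genes were 4.83%, 1.74% and 8.88%. Tlr6 reached the level in 1 library, untreated feeder replicate 2. Tlr4, Cd14, Tlr3 and Tlr7 exceeded it in all 6 libraries. Over the 6 genes and 6 libraries, 5 of 36 values (13.9%) were at the level, against 9.88% of the values of all genes. With a stricter limit of the mean plus 3 SD the number was 9 of 36, made up of 5 values of Tlr9, 3 of Tlr6 and 1 of Cd14. Tlr9 did not reach 20 counts in any library, so it was left out of the tested set, and the other 5 genes passed that filter of at least 20 counts in at least 2 libraries.

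**Figure D1:**
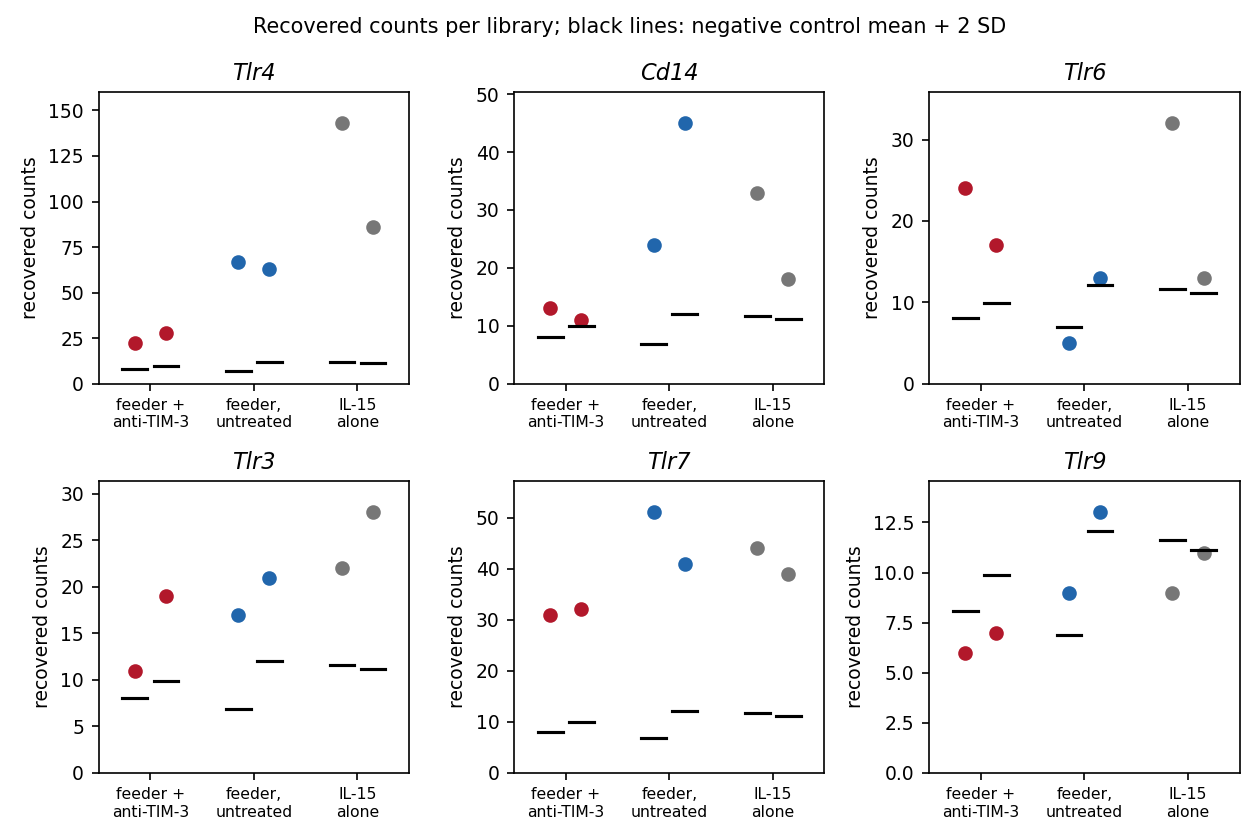
Recovered counts (vertical axis, each panel on its own linear scale from 0) of the 6 genes in each library, with anti-TIM-3 libraries in red, untreated feeder libraries in blue and IL-15 libraries in grey. Each black line is that library's negative control limit, the mean plus 2 SD of its 8 negative control probes. Tlr4 lies above its limits in all 6 libraries, with 22 and 28 counts in the anti-TIM-3 libraries, and Tlr9 lies at or below them in 4.

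Tlr4, the lipopolysaccharide receptor, had 22 and 28 counts in anti-TIM-3 libraries, 67 and 63 in untreated feeder libraries, and 143 and 86 in IL-15 libraries. Exact Poisson 95% intervals, which cover counting error only, were 13.8 to 33.3 and 18.6 to 40.5 counts in anti-TIM-3 libraries and 51.9 to 85.1 and 48.4 to 80.6 in untreated feeder libraries. Both anti-TIM-3 libraries thus lay below both libraries of each other group, in unscaled counts as in normalised counts. Relative to the negative controls of the same library, the counts were 5.18 and 4.98 times the mean in anti-TIM-3 libraries, 14.9 and 13.3 times in untreated feeder libraries, and 23.3 and 17.6 times in IL-15 libraries.

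In normalised counts Tlr4 averaged 36.7 ± 16.9 in anti-TIM-3 libraries, 72.1 ± 8.15 in untreated feeder libraries and 91.1 ± 39.9 in IL-15 libraries (SD, n = 2 each). The order of the groups was IL-15, untreated feeder, anti-TIM-3 from high to low, and the upper neighbours overlapped, with 66.3 and 77.9 in untreated feeder libraries between the 119 and 62.9 of IL-15 libraries. The log2 difference between anti-TIM-3 and untreated feeder was −1.05 ± 0.47 (SE, adjusted p = 0.128 in limma), with a 95% interval of −2.20 to 0.10. Against IL-15, the anti-TIM-3 difference was −1.32 ± 0.47 (adjusted p = 0.0573 in limma, 95% interval −2.47 to −0.17), whose unadjusted p was 0.0305. In that comparison 256 of all 430 tested probes had an unadjusted p under 0.05 in limma. Neither Tlr4 difference passed the threshold of 0.05 on the adjusted p. In both comparisons the groups did not overlap, which also held for 75.6% and 82.1% of all tested probes, in that order.

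The Tlr4 result depended on the scale. The median log2 difference of all tested probes was 0.47 between anti-TIM-3 and untreated feeder on the housekeeping scale, and on the positive control scale it was −0.04. On that second scale, which uses the spiked-in positive controls in place of housekeeping genes, the Tlr4 difference was −1.56 with an adjusted p of 0.0422 in limma, and it passed. Scaled by total count it was −1.31 (adjusted p = 0.0683 in limma) and by the median of ratios −1.54 (adjusted p = 0.0546 in limma), and neither passed. Against IL-15 the same 3 scales gave −2.05, −1.86 and −1.99, with adjusted p-values of 0.00301, 0.0238 and 0.0214 in limma, and all passed. Leaving out anti-TIM-3 replicate 1 brought the difference from untreated feeder to −0.56, and leaving out anti-TIM-3 replicate 2 brought it to −1.54. The direction was downward under all 16 alternatives in both comparisons.

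Cd14, the co-receptor that carries lipopolysaccharide to TLR4 and a classical monocyte marker, had 13 and 11 counts in anti-TIM-3 libraries, 24 and 45 in untreated feeder libraries, and 33 and 18 in IL-15 libraries. In unscaled counts the anti-TIM-3 libraries were the lowest, at 3.06 and 1.96 times the negative control mean. The untreated feeder libraries were far apart, at 5.33 and 9.47 times. In normalised counts Cd14 averaged 16.9 ± 3.15 in anti-TIM-3 libraries, 39.7 ± 22.5 in untreated feeder libraries and 20.4 ± 10.2 in IL-15 libraries (SD, n = 2 each). The lowest normalised value was the 13.2 of IL-15 replicate 3, below the 14.6 and 19.1 of the anti-TIM-3 libraries.

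For Cd14, anti-TIM-3 and untreated feeder libraries did not overlap, which also held for 75.6% of all tested probes. Their log2 difference was −1.12 ± 0.59 (SE, adjusted p = 0.174 in limma, 95% interval −2.55 to 0.31). It was −0.51 without untreated feeder replicate 3 and −1.73 without untreated feeder replicate 2, so its size rested on which of these libraries was used. Between anti-TIM-3 and IL-15 it was −0.19 ± 0.59 (adjusted p = 0.813 in limma), and those groups overlapped. Ly96, which encodes the MD-2 subunit that TLR4 needs for lipopolysaccharide binding, averaged 98.6 normalised counts in anti-TIM-3 libraries, 68.9 in untreated feeder libraries and 67.4 in IL-15 libraries. Its log2 difference between anti-TIM-3 and untreated feeder was 0.52 ± 0.35 (adjusted p = 0.277 in limma).

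Tlr6, the surface receptor that pairs with TLR2, had 24 and 17 counts in anti-TIM-3 libraries, 5 and 13 in untreated feeder libraries, and 32 and 13 in IL-15 libraries. The lowest count, 5 in untreated feeder replicate 2, was 1.11 times that library's negative control mean and had a Poisson interval of 1.62 to 11.7. In normalised counts the anti-TIM-3 libraries had 27.0 and 29.5, the untreated feeder libraries 4.95 and 16.1, and the IL-15 libraries 26.7 and 9.51. Tlr6 was the only member whose anti-TIM-3 libraries both lay above both untreated feeder libraries.

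The log2 difference of Tlr6 between anti-TIM-3 and untreated feeder was 1.66 ± 0.75 (SE, adjusted p = 0.128 in limma), with a 95% interval of −0.15 to 3.48. It was 0.81 without untreated feeder replicate 2, the library at the negative control level, and 2.51 without untreated feeder replicate 3. Against IL-15 the anti-TIM-3 difference was 0.83 ± 0.75 (adjusted p = 0.384 in limma). In the authors' deposited table, which compares groups named only by number, Tlr6 had a log2 fold change of 1.6 with a q-value of 0.056. Tlr4 had −1 with a q-value of 0.17, and Cd14 −1.1 with a q-value of 0.22, in the authors' deposited table. Tlr3 had −0.043, Tlr7 −0.2 and Tlr9 −0.38 there. These deposited values were near the differences given here between anti-TIM-3 and untreated feeder, although no label ties the numbered groups to samples.

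Tlr3, the endosomal sensor of viral RNA duplexes, had 11 and 19 counts in anti-TIM-3 libraries, 17 and 21 in untreated feeder libraries, and 22 and 28 in IL-15 libraries. All 6 counts lay between 2.59 and 5.74 times the negative control mean. In normalised counts Tlr3 averaged 22.7 ± 14.6 in anti-TIM-3 libraries, 21.4 ± 6.45 in untreated feeder libraries and 19.4 ± 1.5 in IL-15 libraries (SD, n = 2 each). The anti-TIM-3 libraries, at 12.4 and 33.0, enclosed both other groups. The log2 difference between anti-TIM-3 and untreated feeder was −0.05 ± 0.57 (SE, adjusted p = 0.944 in limma), with a 95% interval of −1.43 to 1.33, which leaves room for a change of over 2-fold in either direction.

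Tlr7, the endosomal sensor of viral and self RNA rich in uridine and guanosine, had 31 and 32 counts in anti-TIM-3 libraries, 51 and 41 in untreated feeder libraries, and 44 and 39 in IL-15 libraries. It exceeded 20 counts in all 6 libraries, as did only Tlr4 among the other members. In normalised counts it averaged 45.2 ± 14.6 in anti-TIM-3 libraries, 50.6 ± 0.123 in untreated feeder libraries and 32.6 ± 5.79 in IL-15 libraries (SD, n = 2 each). The log2 difference between anti-TIM-3 and untreated feeder was −0.20 ± 0.36 (SE, adjusted p = 0.686 in limma), with a 95% interval of −1.08 to 0.68. Untreated feeder libraries, at 50.5 and 50.7, both lay above the IL-15 libraries, at 36.7 and 28.5, and that difference was 0.64 ± 0.36 (adjusted p = 0.652 in limma). The groups of that comparison did not overlap for 40.2% of all tested probes.

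Tlr9 was tested only in the fit without a count filter, where its log2 difference between anti-TIM-3 and untreated feeder was −0.40 ± 0.50 (SE, adjusted p = 0.583 in limma). With the anti-TIM-3 libraries at the negative control level, that value sets counts just above the control limit against counts below it. The Poisson intervals of the untreated feeder counts, 4.12 to 17.1 and 6.92 to 22.2, include the limits of those libraries, 6.89 and 12.1. The normalised 12.2 of anti-TIM-3 replicate 2 lay between the 8.91 and 16.1 of the untreated feeder libraries, although its 7 counts were at the control level. This was because each count of anti-TIM-3 replicate 2 was worth more on the housekeeping scale. The negative control mean itself came to 9.77 units on the gene scale in anti-TIM-3 replicate 2, and to between 3.57 and 5.87 in the other libraries.

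Of the 5 tested members, 0 passed the threshold between anti-TIM-3 and untreated feeder, where 38.6% of all 430 tested probes did. Between untreated feeder and IL-15 the number was again 0 of 5, against 0% of all tested probes. Between feeder plus anti-TIM-3 and IL-15 it was 0 of 5, against 50.9%. At an unadjusted p under 0.05, limma counted 0, 0 and 1 members in these comparisons, the 1 being Tlr4. Of all 430 tested probes, 205, 39 and 256 had such a p. With voom weights on the recovered counts no member passed the threshold on the adjusted p either. The members are low: the largest mean count was 68.2. Among the 135 tested probes with a mean under 100 counts, a limit chosen after the values were seen, 20.7% passed between anti-TIM-3 and untreated feeder, and 32.6% between feeder plus anti-TIM-3 and IL-15. The median SE of those probes was 0.42 on the log2 scale, against 0.30 over all tested probes.

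The groups did not overlap for Tlr4, Cd14 and Tlr6 between anti-TIM-3 and untreated feeder, that is 3 of 5 tested members, against 75.6% of all tested probes. Relative to the median of all tested probes in that comparison, the difference was −1.52 for Tlr4, −1.59 for Cd14 and 1.20 for Tlr6 on the log2 scale. Between untreated feeder and IL-15, Tlr4 differed by −0.27 ± 0.47, Cd14 by 0.93 ± 0.59, Tlr6 by −0.84 ± 0.75 and Tlr3 by 0.11 ± 0.57 (log2 ± SE), with adjusted p-values from 0.720 to 0.982 in limma. The 3 comparisons share libraries, each pair of them having a group in common, so they are not independent of each other. As these are bulk samples, fewer cells of a type and less RNA per cell cannot be told apart.

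**Figure D2:**
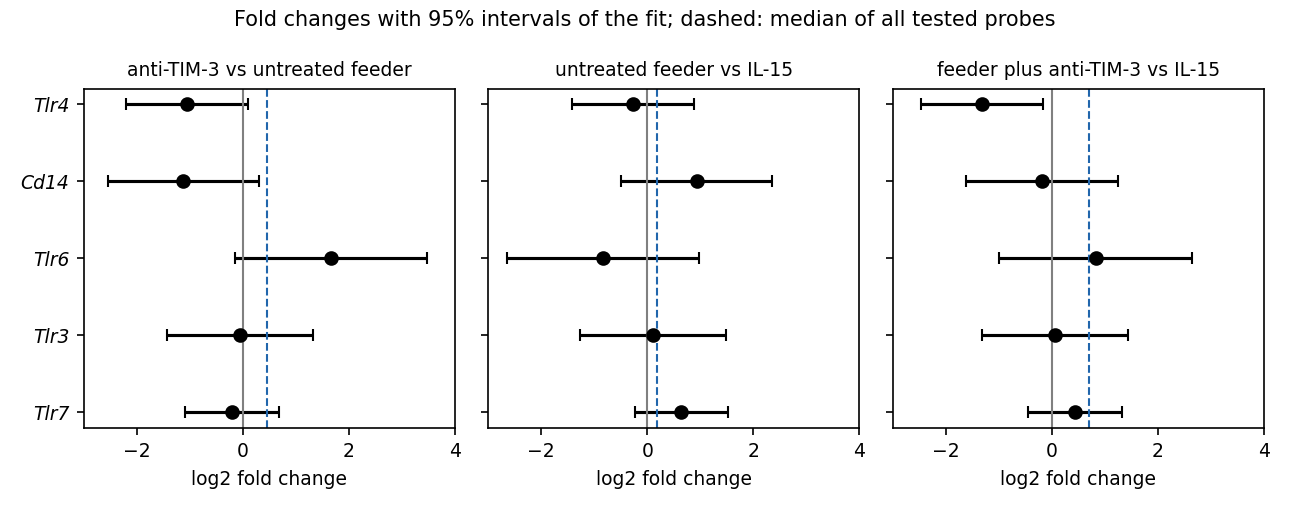
Log2 fold changes (horizontal axis) of the 5 tested members in the 3 comparisons, as points with 95% intervals of the limma fit. The dashed line is the median of all tested probes, 0.47, 0.19 and 0.70 in the panels from left to right, and the interval of Tlr4 in the right panel, −2.47 to −0.17, is the only one of the 15 that leaves out 0.

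**Figure D3:**
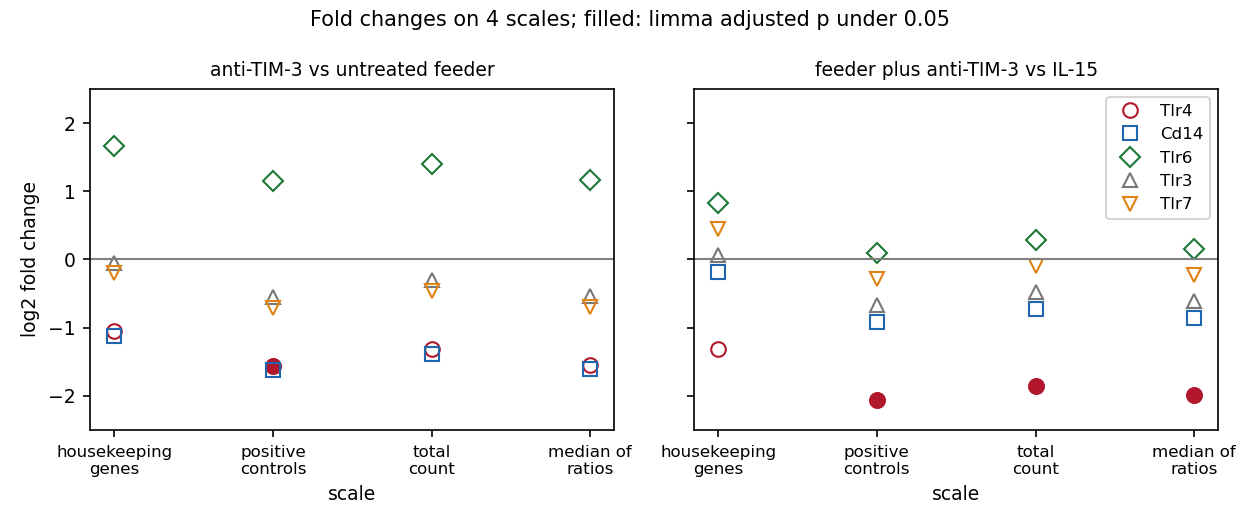
Log2 fold changes (vertical axis) of the tested members on 4 scales (horizontal axis), anti-TIM-3 against untreated feeder on the left and feeder plus anti-TIM-3 against IL-15 on the right. Filled points had a limma adjusted p under 0.05. Tlr4 lies below 0 on every scale in both panels and is filled on the positive control scale on the left (−1.56) and on 3 scales on the right.

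Genes that act after the receptors were described from lists of known pathway members. Of all 430 tested probes, 31.4% rose and 7.21% fell between anti-TIM-3 and untreated feeder. The counts below are to be read against these shares, except where another scale, the block or another comparison is named. Of 12 tested adaptors and proximal kinases, 4 rose and 0 fell between anti-TIM-3 and untreated feeder, with a median log2 difference of 0.61 against 0.47 over all tested probes. That count is near the share of all probes that rose. Traf3, an adaptor of the interferon branch, rose by 2.09 ± 0.38, and Ikbke, a kinase of interferon regulatory factors, by 1.87 ± 0.35 (log2 ± SE). The kinase genes Irak4 and Irak1, which act directly after MyD88, rose by 1.03 ± 0.22 and 0.70 ± 0.20. Myd88 itself differed by 0.69 ± 0.32 (adjusted p = 0.132 in limma). Tirap, the bridging adaptor of TLR2 and TLR4, differed by −0.65 ± 0.42 (adjusted p = 0.259 in limma).

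Of 6 tested negative regulators, 3 rose and 0 fell, with a median of 1.07, where 31.4% of all probes rose. These were Nfkbia (2.08 ± 0.32), which encodes the inhibitor that holds NF-kB in the cytoplasm, Socs1 (1.95 ± 0.23), a suppressor of cytokine signalling, and Cyld (1.40 ± 0.26), a deubiquitinase. Of 17 tested NF-kB, interferon regulatory factor and MAP kinase genes, 7 rose and 0 fell, with a median of 0.59, again beside 31.4% of all probes. The NF-kB subunit genes Relb (1.97 ± 0.29), Nfkb2 (1.27 ± 0.22), Rela (1.21 ± 0.21) and Rel (1.04 ± 0.28) were among them, as were Irf5 (1.21 ± 0.31), Irf3 (0.85 ± 0.21) and the kinase gene Ikbkb (0.87 ± 0.22). Jun, an AP-1 subunit, differed by −0.58 ± 0.21 (adjusted p = 0.0772 in limma).

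Among 9 tested genes that Toll-like receptors are known to induce, 3 rose and 0 fell, with a median of 0.70, a count near the 31.4% of all probes that rose. Ccl3 rose by 3.31 ± 0.36 and Ccl4 by 2.39 ± 0.49, both chemokines, and the cytokine gene Tnf rose by 2.75 ± 0.31 (log2 ± SE). Other receptors for microbial molecules and their adaptors rose in 6 of 9 tested cases and fell in 0, with a median of 1.17, beside the same 31.4%. They included Nod1 (1.66 ± 0.33), a sensor of bacterial peptidoglycan, the RNA sensors Ddx58 (1.17 ± 0.18) and Ifih1 (1.19 ± 0.24), Zbp1 (1.63 ± 0.26), a sensor of nucleic acids in the Z form, Tmem173 (0.91 ± 0.28), the STING adaptor, and Nlrc5 (1.64 ± 0.48), a regulator of MHC class I genes.

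Between feeder plus anti-TIM-3 and IL-15, 6 of the 12 adaptors and kinases, 4 of the 6 negative regulators, 9 of the 17 downstream genes, 5 of the 9 induced genes and 6 of the 9 other sensors rose, and none of these lists had a fall. Of all 430 probes, 44% rose and 6.98% fell there. Between untreated feeder and IL-15, limma called 0 genes in each list, as voom did, while 39 of all 430 probes had an unadjusted p under 0.05. In the anti-TIM-3 comparison with untreated feeder, other scales gave other numbers. On the positive control scale 1 adaptor or kinase, 2 negative regulators, 1 downstream gene, 3 induced genes and 0 other sensors rose. On that scale 32 of all 430 probes rose. Scaled by total count or by the median of ratios, 1 downstream gene fell, where 37 and 49 of all 430 probes fell. With the replicate number as a block, the rises were 1, 2, 1, 3 and 2 in the same order of lists, and 47 of all 430 probes rose. Against IL-15, the rises on the positive control scale were 0, 0, 1, 3 and 2 in that order. They were 1, 2, 2, 3 and 5 by total count and 1, 2, 2, 3 and 5 by the median of ratios. With the block they were 0, 2, 1, 3 and 3. Of all 430 probes, 47, 74, 80 and 64 rose in the fits just named, in turn. Against IL-15, total count and the median of ratios gave 1 and 2 falls among adaptors and kinases, and 1 and 2 falls among downstream genes. Of all 430 probes, 55 and 76 fell there. Between anti-TIM-3 and untreated feeder, every list lost its calls without untreated feeder replicate 3, which left that group with replicate 2 alone.

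**Figure D4:**
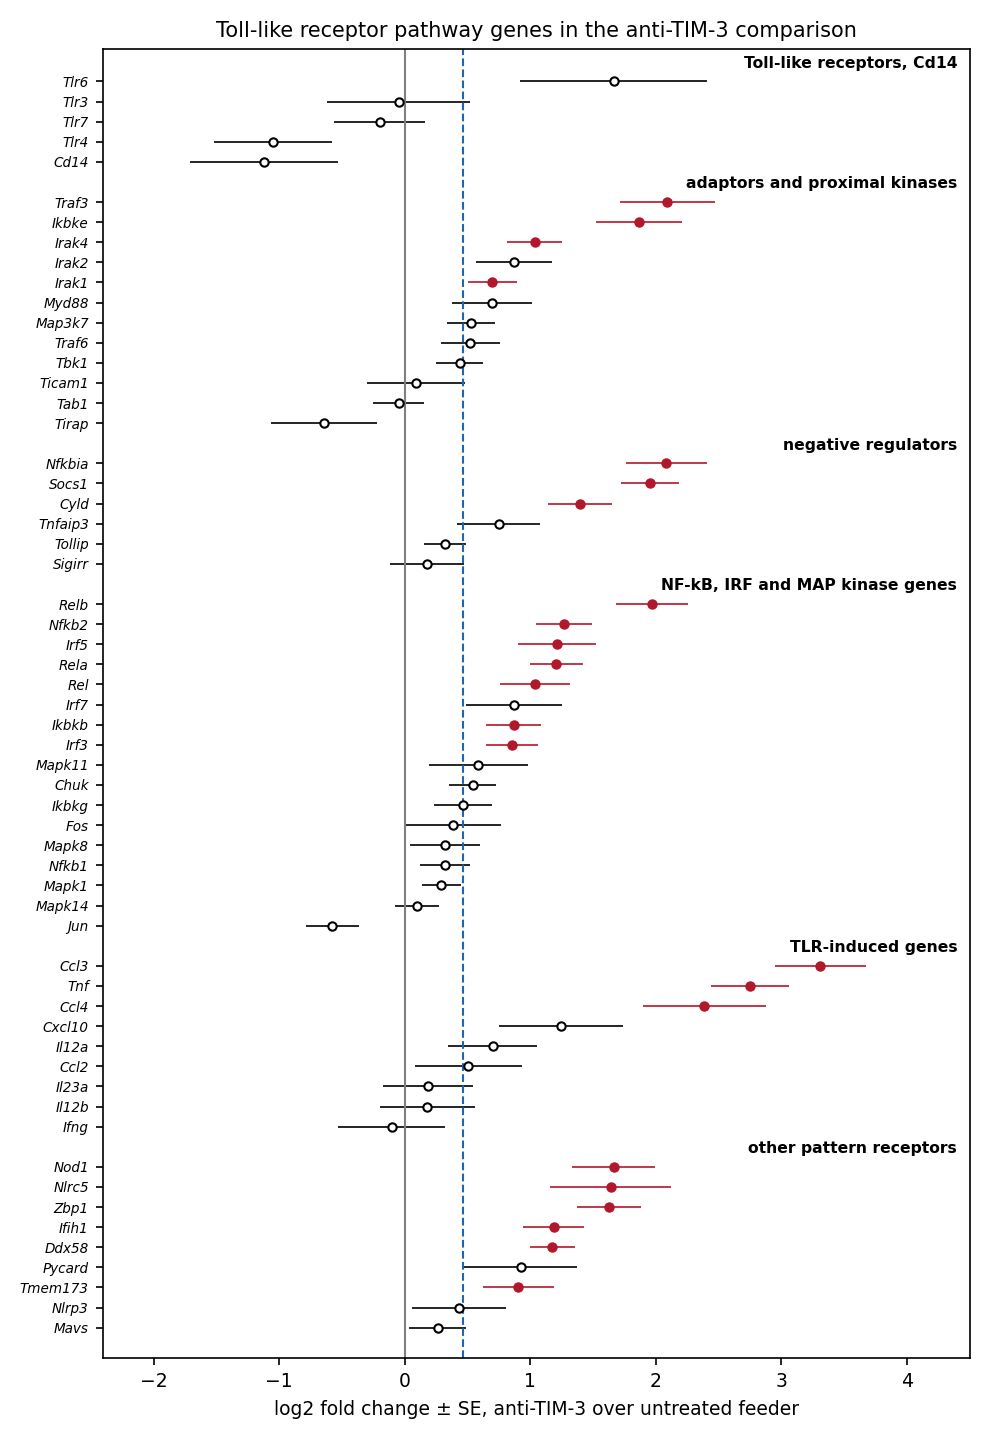
Log2 fold changes between anti-TIM-3 and untreated feeder (horizontal axis, points with SE bars) of the tested members, at the top, and of the listed pathway genes, 1 gene per line. Filled red points had a limma adjusted p under 0.05, and the dashed line is the median of all tested probes, 0.47. Tlr4 (−1.05) and Cd14 (−1.12) lie lowest, while Ccl3 (3.31) lies highest.

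Myeloid cells would carry Cd14 and several of these receptors, so their markers are given beside the members. Of 20 listed myeloid and dendritic markers, 11 were on the panel. Their summed level was 5645 and 6214 normalised counts in anti-TIM-3 libraries, 3578 and 3563 in untreated feeder libraries, and 2779 and 2995 in IL-15 libraries. Of the 11 markers, 2 were at the negative control level in each anti-TIM-3 library, 1 and 2 in untreated feeder libraries, and 3 in each IL-15 library. The sum, of which Cd14 is itself a part, was thus highest in the anti-TIM-3 libraries. Most of it was Ccr2, a chemokine receptor, at 4748 normalised counts on average in anti-TIM-3 libraries and 3100 in untreated feeder libraries. The sum of the 12 listed NK cell genes was also highest there, at 94005 and 103518 normalised counts. It was 73382 and 89488 in untreated feeder libraries and 56467 and 60052 in IL-15 libraries.

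Between anti-TIM-3 and untreated feeder, 6 of the 12 NK cell genes rose and 2 fell, where 31.4% and 7.21% of all probes did. Those that rose were Ncr1, Klrb1c, Klrc1, Klrd1, Itga2 and Tbx21, and those that fell were Prf1 (−2.41 ± 0.39) and Eomes (−0.72 ± 0.18). On the positive control, total count and median of ratios scales, 1, 3 and 2 NK cell genes rose and 1, 2 and 2 fell. Of all 430 probes, 32, 62 and 53 rose and 37, 37 and 49 fell on these scales, and 47 rose with the replicate block. Of the 8 tested myeloid and dendritic markers, H2-Ab1 differed by −0.006 ± 0.56 (log2 ± SE, adjusted p = 0.991 in limma). In that comparison 4 of these 8 rose and 0 fell, namely Ccr2, Itgax, H2-Aa and Cd74, where 31.4% of all probes rose. On the positive control, total count and median of ratios scales and with the replicate block 1 of these markers rose, and without anti-TIM-3 replicate 2 or untreated feeder replicate 3 none did. Itgam, an integrin chain of myeloid and NK cells, averaged 118 normalised counts in anti-TIM-3 libraries and 40.9 in untreated feeder libraries (adjusted p = 0.0692 in limma), and Cd68 averaged 117 in anti-TIM-3 libraries and 69.4 in untreated feeder libraries (adjusted p = 0.0943 in limma). Between feeder plus anti-TIM-3 and IL-15, 7 of the 8 rose, all but Cd14, with Itgam at 2.82 ± 0.59 and Cd68 at 1.49 ± 0.30 (log2 ± SE), where 44% of all probes rose. That count was 4 on each of the 3 other scales and 2 with the block. Of all 430 probes, 47, 74 and 80 rose on the positive control, total count and median of ratios scales, and 64 with the block. The count of markers was also lower without anti-TIM-3 replicate 2, which left that group with replicate 1 alone.

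The macrophage growth factor receptor gene Csf1r had 5 and 7 counts in anti-TIM-3 libraries, 6 and 12 in untreated feeder libraries, and 11 and 8 in IL-15 libraries, at the negative control level in all 6. Fcgr1, the high-affinity antibody receptor of monocytes, had 10 and 10 counts in anti-TIM-3 libraries, 18 and 17 in untreated feeder libraries, and 12 and 10 in IL-15 libraries. The part of myeloid cells in the levels of Tlr4 and Cd14 was not tested. None of the listed neutrophil markers was among the genes analysed, and of 7 B cell markers 3 were, with a summed level of 30.7 to 64.2 normalised counts per library. Some genes listed as markers of T cells and mast cells also moved between anti-TIM-3 and untreated feeder. Of the 2 tested genes of the T cell list, Cd247 differed by 0.30 ± 0.24 (log2 ± SE, adjusted p = 0.359 in limma) and did not pass. Fcer1a and Ms4a2 of the mast cell list were on the panel but did not pass the count filter. Cd3d, a chain of the T cell receptor complex, had 67.6 and 41.7 normalised counts in anti-TIM-3 libraries, 190.1 and 188 in untreated feeder libraries, and 22.5 and 64.4 in IL-15 libraries. It fell by 1.83 ± 0.54 (log2 ± SE, adjusted p = 0.0396 in limma) against untreated feeder, a call lost by total count, with the negative control mean subtracted, with the replicate block and without anti-TIM-3 replicate 2 or either untreated feeder library. Of the mast cell list, Kit rose by 1.43 ± 0.25, a call lost on the positive control scale, with the block, and without anti-TIM-3 replicate 2 or untreated feeder replicate 3. The mast cell chymase gene Cma1 had 6 and 1 counts in anti-TIM-3 libraries, at the negative control level, 49 and 268 in untreated feeder libraries, and 434 and 245 in IL-15 libraries. It fell in limma with an adjusted p of 0.0148 against untreated feeder, a call lost without anti-TIM-3 replicate 2 or untreated feeder replicate 3. The part of these cell types in the members' levels was not tested. Nor was it tested whether the listed markers, the myeloid ones included, are particular to their cell type.

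Patterns over the 6 libraries were compared by Pearson's r of the log2 values, as a description of 3 groups that share libraries, scale and depth. The genes most like Tlr4 were Dock9 (r = 0.974), Itga5 (0.955) and Map2k1 (0.890). Those most like Cd14 were Gzmb (0.956), Tnfrsf9 (0.930) and H2-Ob (0.908), of which H2-Ob had only 8 to 34 counts. Those most like Tlr6 were Cd1d1 (0.894), Nfatc2 (0.888) and Atf2 (0.875). For Tlr7 they were Cd48 (0.903), Txnip (0.886) and Il10ra (0.879), and for Tlr3 Vhl (0.853), Prdm1 (0.779) and Adora2a (0.760). Among the members themselves, Tlr4 and Cd14 had r = 0.56, Tlr4 and Tlr6 −0.20, and Tlr4 and Tlr7 0.09 over the 6 libraries.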

How the data were processed

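RNA of 6 libraries was measured with an nCounter panel. The deposited value table held log2 values, with the housekeeping mean at 9.22 in every library; no header or label states this scaling, which was read from the values. Limma was used per the submitters' processing notes, with no version given. The authors' deposited comparison table listed 498 genes, each with its log2 fold change, p-value and q-value. Whole counts were recovered from the smallest step of each library (100% of values whole within 0.01). A further 18 columns named by instrument lane were not used.

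The log2 values were fitted with limma 3.58.1 in R 4.3.3 (3 groups, all 6 libraries, trend and robust moderation, no pseudocount) for the 430 of 518 genes that reached 20 recovered counts in 2 or more libraries, which left out 88. P-values were adjusted by Benjamini-Hochberg over all tested probes at 0.05. The script was tested on simulated data. Groups follow the labels' expansion method and treatment. Probes differ in efficiency, so the count filters, the summed marker levels and the largest mean count compare counts, not transcript levels, between genes.

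Named genes were all members, the called or otherwise most abundant members of each list, up to 5 a list, and the 3 genes most like each tested member. Further called genes of the lists, and the markers Csf1r, Fcgr1, Itgam, Cd68, Cd247, H2-Ab1, Fcer1a and Ms4a2, were named after their values were seen. The members and lists were chosen with earlier results of these data known. Alternatives were other scales, filters, background subtraction, a pseudocount of 5, plain moderation, voom, a replicate block and leaving out each library.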

Additional observations from a re-analysis of the deposited data

How the results depend on the processing

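The number of probes called between anti-TIM-3 and untreated feeder was 166, and it was 69 on the positive control scale (32 rose, 37 fell), 99 by total count (62 and 37), 102 by the median of ratios (53 and 49), and 0 to 171 with a library left out, the 0 without untreated feeder replicate 3. For feeder plus anti-TIM-3 against IL-15 it was 219, and 94 on the positive control scale (47 and 47), 129 by total count (74 and 55), 156 by the median of ratios (80 and 76) and 113 to 199 with a library left out. For untreated feeder against IL-15 it was 0, at an unadjusted p under 0.05 it was 39, and it was 1 on the positive control scale and 0 to 7 with a library left out. The title numbers are shared by 1 pair of libraries between any groups, so whether they pair the samples could not be checked; with the number as a replicate block the calls were 61 (47 rose, 14 fell), 0 and 76, in the order anti-TIM-3 against untreated feeder, untreated feeder against IL-15, and feeder plus anti-TIM-3 against IL-15. The member values at the negative control level were 5 of 36, and 9 at the mean plus 3 SD, 16 at 20 counts, 5 at the highest negative control and 4 to 5 with a library left out. The cause of these changes was not tested.

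Tlr4 against IL-15 also passed with the negative control mean subtracted (−1.56, adjusted p = 0.0397 in limma), without anti-TIM-3 replicate 2 (−1.81, 0.0489) and without IL-15 replicate 3 (−1.78, 0.0270), and its adjusted p ran from 0.00301 to 0.227 over the 16 alternatives. For Tlr4 between anti-TIM-3 and untreated feeder it ran from 0.0422 to 0.415, for Cd14 from 0.0633 to 0.576 and for Tlr6 from 0.0816 to 0.470. The sign turned for the following differences, none of which had passed the test. For Tlr3 between anti-TIM-3 and untreated feeder it was 0.051 with the pseudocount, 0.34 with the replicate block and −0.75 to 0.66 with a library left out. Between untreated feeder and IL-15, Tlr3 was −0.12 on the positive control scale, −0.17 by total count, −0.069 by the median of ratios, −0.29 with the block and −0.20 to 0.42 with a library left out. For feeder plus anti-TIM-3 against IL-15, Tlr3 was −0.67, −0.48 and −0.61 on these scales, −0.17 with the negative control mean subtracted and −0.65 to 0.77 with a library left out, and Tlr7 was −0.29, −0.094 and −0.23 on these scales. Cd14 there was 0.039 with the pseudocount and −0.72 to 0.34 with a library left out. With a library left out, Tlr7 between anti-TIM-3 and untreated feeder was −0.53 to 0.14, and between untreated feeder and IL-15 Tlr4 was −0.73 to 0.19 and Tlr6 −1.69 to 0.012. At least 50 counts in 2 libraries kept only Tlr4 of the members. With counts of 5 to 143 and 2 libraries a group, the 95% interval of each tested member included a change of over 2-fold in at least 1 direction in every comparison.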
